A study of Mus musculus with 9 samples.

Results

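The core transcription factors of the red cell lineage were described in erythroblasts of mice that lack Desert hedgehog (Dhh). The set held 10 genes of the 20368 in the deposited table, taken by symbol: Gata1, its cofactor Zfpm1, the complex members Tal1, Lmo2 and Ldb1, the CACCC-binding factors Klf1 and Klf3, Nfe2, and the repressors Gfi1b and Bcl11a. RNA sequencing was carried out on splenocytes of 4-week-old C57BL/6 mice. All libraries came from cells sorted as positive for CD71, the transferrin receptor, and for Ter119, a surface antigen of late erythroid cells. There were 3 libraries from Dhh-/- (knockout) mice, 3 from Dhh+/- (heterozygous) mice and 3 from wildtype mice, and the labels do not describe the null allele. The comparisons asked whether loss of 1 or both copies of the gene for this secreted ligand moved the factors that set the erythroid programme.

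Gata1 is the zinc finger factor on which the red cell programme rests, and it binds the letters GATA in the control regions of nearly all erythroid genes. Zfpm1 (Friend of Gata1) binds Gata1 itself and brings chromatin repressors. Tal1 pairs with an E protein on DNA, Lmo2 bridges Tal1 to Gata1, and Ldb1 joins such complexes over a distance and brings enhancers to globin promoters. Klf1 activates adult beta-globin and many other late erythroid genes through CACCC letters, Klf3 is a target of Klf1 that represses at the same letters, and Nfe2 activates globin genes from their distant control region together with a small Maf protein. Gfi1b is a target and partner of Gata1 that silences genes of earlier stages, and Bcl11a keeps the embryonic and fetal globin genes silent in adult cells.

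The start sites of Gata1 and Klf1, which followed each other most closely of all pairs in the set, and of Gfi1b, which varied most, are shown to let the letters bound by these families be seen. RefSeq promoters (build GRCm38.p6) were found for 8 of the 10 genes, 11 promoters in all, and the 250 bases before each start were searched on both strands. The letters searched for Gata1 were GATA with A or T before it and A or G after it. Those for the Klf family were CACCC, those for Tal1 with an E protein were CANNTG, and those for Nfe2 were TGANTCA, where N is any base. Capitals mark GATA and CACCC letters or their complement, and no capitals of 1 motif overlap those of the other. Gata1 lies on the minus strand, and its window at chrX:7967911-7968160 is inside the gene's longer span in GENCODE M21. It has CACCC at 74 and at 52 bases before the start:
Gata1: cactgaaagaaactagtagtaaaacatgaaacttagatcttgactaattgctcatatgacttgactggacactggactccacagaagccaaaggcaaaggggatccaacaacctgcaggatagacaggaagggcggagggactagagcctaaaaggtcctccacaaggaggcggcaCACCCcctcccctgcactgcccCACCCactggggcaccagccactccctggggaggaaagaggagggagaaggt
The Klf1 window, plus strand, chr8:84901732-84901927, stops before the first annotated base of the gene. It has CACCC 114 bases and TTATCA, the complement of TGATAA, 80 bases before the RefSeq start:
Klf1: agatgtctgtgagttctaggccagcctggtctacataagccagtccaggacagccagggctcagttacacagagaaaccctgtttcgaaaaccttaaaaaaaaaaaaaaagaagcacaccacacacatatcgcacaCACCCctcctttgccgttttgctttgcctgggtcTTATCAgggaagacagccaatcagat
The Gfi1b window, minus strand, chr2:28621983-28622232, has CACCC 184 bases and TGATAA 120 bases before the start:
Gfi1b: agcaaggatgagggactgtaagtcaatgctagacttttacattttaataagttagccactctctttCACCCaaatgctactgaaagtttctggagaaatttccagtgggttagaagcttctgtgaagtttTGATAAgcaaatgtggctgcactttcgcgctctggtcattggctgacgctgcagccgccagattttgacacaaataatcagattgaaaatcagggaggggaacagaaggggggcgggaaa

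GATA letters were present in 4 of the 11 promoters (Klf1, Gfi1b, 1 of the 2 of Tal1 and 1 of the 3 of Ldb1), against 26.5% of 32851 mouse promoters and 17.1% of the 9406 promoters of tested genes. CACCC was present in 10 of 11 promoters and at 5 places in that of Klf3. It is common, and 52.0% of all promoters and 56.5% of those of tested genes had it. CANNTG was present in 6 of 11 promoters, with 66.2% over all promoters and 56.4% over those of tested genes. No member promoter held TGANTCA, which 6.75% of all promoters and 4.23% of those of tested genes had. A match shows only that the letters are there.

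The deposited values are FPKM, reads per gene length and library size, and the whole reads behind them could be recovered. In units of 1e6 (M), they came to 13.34, 8.58 and 13.05 M in knockout replicates 1, 2 and 3, to 14.23, 7.05 and 13.85 M in the heterozygous replicates, and to 8.66, 9.66 and 13.2 M in the wildtype replicates. The sorted cells carried the erythroid markers at high level: the 11 markers in the table summed to between 15035 and 27626 FPKM per library. The targeted gene could not check the labels, since Dhh stood at 0 in all 3 knockout libraries, at 0.0267 FPKM in 1 heterozygous library, replicate 1, and at 0 in the other two, and at 0 in all 3 wildtype libraries. No label ties a library to a mouse, so every p-value here measures the spread between libraries, which may be technical. In such bulk RNA, fewer cells of a type and less RNA per cell cannot be told apart. 2 libraries stand apart and touch the results below. Knockout replicate 2 had 1.21 FPKM summed over 4 Y-linked genes (Ddx3y, Eif2s3y, Kdm5d and Uty), against 66.6 to 106 FPKM in the other 8 libraries, and the labels give no sex. On the log2(FPKM + 1) scale, wildtype replicate 3 had the lowest mean over 53 markers of other blood cells. It was 1.78, against 2.84 to 3.97 in the other 8 libraries. Not every cell type was lowest there. Neutrophil markers summed to 315 FPKM in wildtype replicate 3 and to 251 FPKM in heterozygous replicate 1. Megakaryocyte and platelet markers summed to 48.2 FPKM in wildtype replicate 3 and to 39.2 FPKM in knockout replicate 2.

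All 10 factors were detected in all 9 libraries, and all passed the filter of at least 1 FPKM in at least 3 libraries that left 9543 genes to be tested. On the FPKM scale Klf1 was highest, with a mean of 362 FPKM over the 9 libraries, which placed it at rank 186 of the 9543 genes. Zfpm1 followed with a mean of 357 FPKM, Lmo2 with 309.6, Nfe2 with 295, Gata1 with 209, Tal1 with 183, Klf3 with 160.2, Gfi1b with 108 and Ldb1 with 72.7. Bcl11a stood far below, with a mean of 3.10 FPKM and rank 7255, from 165 to 367 reads per library.

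Several neighbours in this order were not separated beyond the spread of the libraries. Klf1 exceeded Zfpm1 in 6 of 9 libraries and Lmo2 exceeded Nfe2 in 6 of 9. Zfpm1 exceeded Lmo2, Tal1 exceeded Klf3 and Klf3 exceeded Gfi1b in 8 of 9 libraries each. Nfe2 was above Gata1, Gata1 above Tal1 and Gfi1b above Ldb1 in all 9 libraries, although the ranges over libraries overlapped, and only Bcl11a had a range apart from its neighbour. The order also rests on the lengths behind the FPKM. The value of 1 read in each gene, set against that of Klf1, gave a length of 2308 bases for Klf3, against 11243 bases in the union of its annotated exons, and on the exon-union length its mean level would be 32.9 FPKM. For the other 8 genes the length so found was 0.53 to 0.99 of the exon union. On the exon-union length Tal1, with a mean of 174 FPKM, would stand above Nfe2, with 164 FPKM, and Gata1, with 155 FPKM. Klf3 would fall below Gfi1b, with 107 FPKM, and Ldb1, with 42.1 FPKM. The order of Nfe2, Gata1 and Tal1 and the place of Klf3 thus depend on the lengths used. Comparisons of 1 gene between libraries do not depend on them.

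Gata1 (ENSMUSG00000031162, chromosome X, 7959260 to 7978071, mm10) had 226, 171 and 234 FPKM in knockout libraries, 196, 190.4 and 206 FPKM in heterozygous libraries, and 184, 219 and 254 FPKM in wildtype libraries. Knockout replicate 2 was the lowest library and wildtype replicate 3 the highest, and the values of the 3 genotypes overlapped. Gata1 is X-linked, and the library with the lowest value is the one whose Y-linked genes were near 0. The part of that in the result was not tested. Zfpm1 (chromosome 8, 122282141 to 122337251) had 397, 293 and 366 FPKM in knockout libraries, 373, 378 and 334 FPKM in heterozygous libraries, and 304, 381 and 384 FPKM in wildtype libraries. Knockout replicate 2 was again lowest, and wildtype replicate 1 was next. Gm20388 overlaps Zfpm1 in the annotation. The spread among libraries of 1 genotype was 0.20 for Gata1 and 0.18 for Zfpm1 on the log2 scale (SD), below the median of 0.23 over all tested genes.

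Transcripts of the 3 members of the bridging complex did not share 1 pattern. Tal1 (chromosome 4, 115056426 to 115071755), the helix-loop-helix factor, had 209.7, 154 and 197 FPKM in knockout libraries, 188, 184 and 181 FPKM in heterozygous libraries, and 159, 204 and 172 FPKM in wildtype libraries. Lmo2 (chromosome 2, 103957986 to 103981878), the bridge, had 323, 279.9 and 353 FPKM in knockout libraries, 256, 301 and 283 FPKM in heterozygous libraries, and 352, 356 and 282 FPKM in wildtype libraries. Ldb1 (chromosome 19, 46031570 to 46045214), the joining protein, had 74.4, 66.9 and 72.4 FPKM in knockout libraries, 71.7, 77.7 and 72.3 FPKM in heterozygous libraries, and 57.9, 72.5 and 88.0 FPKM in wildtype libraries. Wildtype replicate 1 was the lowest library for Ldb1 and among the highest for Lmo2, and wildtype replicate 3 was the highest for Ldb1 and near the low end for Lmo2. All 3 heterozygous libraries of Lmo2 were at or below 301 FPKM, and 1 wildtype and 1 knockout library lay in that range too. Lmo2 is overlapped on the opposite strand by 4931422A03Rik and Ldb1 by Pprc1. Whether counting used strand is not given in the sources used here, and these genes and their partners may share reads.

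Klf1 (ENSMUSG00000054191, chromosome 8, 84901928 to 84905291) had 384, 309 and 409.8 FPKM in knockout libraries, 331, 333 and 359.9 FPKM in heterozygous libraries, and 319, 409 and 404 FPKM in wildtype libraries. The lowest libraries were knockout replicate 2 and wildtype replicate 1, as for Gata1. Klf3 (chromosome 5, 64803388 to 64832901) had 196, 149 and 152 FPKM in knockout libraries, 192, 164 and 135 FPKM in heterozygous libraries, and 146, 151 and 156 FPKM in wildtype libraries. Knockout replicate 1 and heterozygous replicate 1 stood above all others, and the 3 wildtype libraries lay between 146 and 156 FPKM. Klf3 is overlapped by Gm20033 on the opposite strand.

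Nfe2 (ENSMUSG00000058794) lies on chromosome 15 (103248212 to 103258403), 4.35 Mb from Dhh. It had 342, 240.5 and 368 FPKM in knockout libraries, 251, 251 and 307 FPKM in heterozygous libraries, and 330.4, 308 and 256 FPKM in wildtype libraries. Knockout libraries held both the highest values and the lowest, so that their range enclosed both other genotypes.

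The repressors were the least even members. Gfi1b (ENSMUSG00000026815, chromosome 2, 28609450 to 28621982) had 104, 75.5 and 127 FPKM in knockout libraries, 123, 89.9 and 119 FPKM in heterozygous libraries, and 75.8, 94.9 and 160.0 FPKM in wildtype libraries. The wildtype libraries alone spanned nearly the whole range, and the highest value over the 9 libraries was 2.12 times the lowest. The within-genotype SD of Gfi1b was 0.41 on the log2 scale, and 81.5% of the tested genes had a smaller one. Counting error is small beside this, at 2.89% for the library with the fewest reads of the gene, 1195. Bcl11a (chromosome 11, 24078056 to 24174123) had 3.02, 2.94 and 2.65 FPKM in knockout libraries, 2.54, 4.51 and 2.73 FPKM in heterozygous libraries, and 2.71, 2.92 and 3.91 FPKM in wildtype libraries. Heterozygous replicate 2 and wildtype replicate 3 were above the rest, and the other 7 libraries lay between 2.54 and 3.02 FPKM. Its counting error was 7.78% at 165 reads, the fewest of any library, and Gm12064 and 4930538E20Rik overlap it on the opposite strand.

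**Figure D1:**
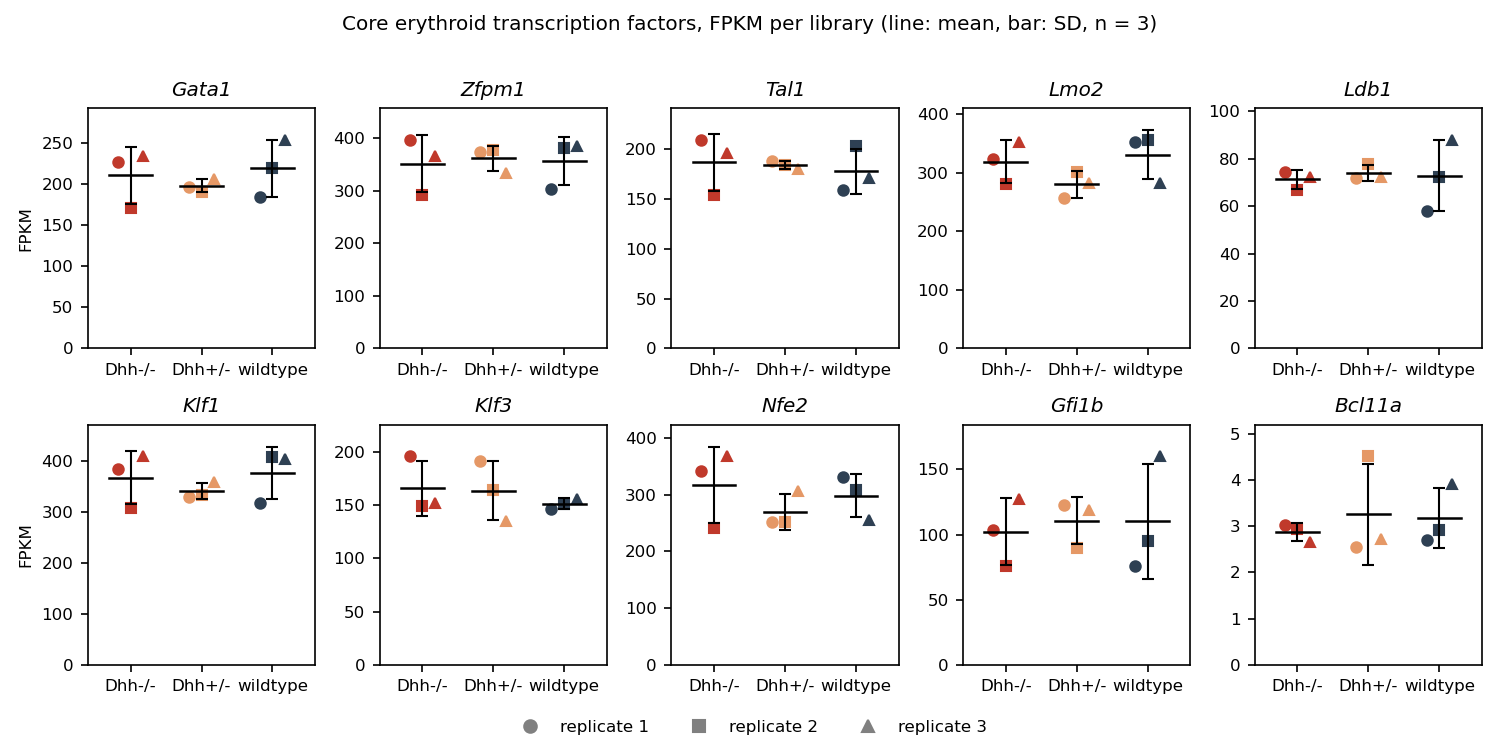
FPKM of the 10 factors in each library, by genotype (horizontal line: mean; bar: SD, n = 3; marker shape: replicate number); each axis starts at 0. The 3 genotypes overlap in every panel, and Gfi1b shows the widest spread, from 75.5 to 160.0 FPKM.

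No factor passed the test between knockout and wildtype libraries. Limma on log2(FPKM + 1) called 0 of the 10 at a Benjamini-Hochberg adjusted p below 0.05, against 0% of the 9543 genes tested, and each had an adjusted p of 0.9997. No factor was below an unadjusted p of 0.05, and 43 of all genes (0.451%) were, while voom on the recovered reads also called 0 genes, with 38 below that unadjusted level. The groups overlapped for all 10 factors, and 2.48% of all tested genes had groups that did not. The most positive difference was that of Klf3, at 0.12 on the log2 scale (95% interval -0.23 to 0.47), and the most negative that of Bcl11a, at -0.10 (-0.56 to 0.35). For Gata1 the difference was -0.06 (-0.42 to 0.30), which is -3.88% with bounds of -25.1% and 23.4%. For Klf1 it was -0.04 (-0.37 to 0.30). The direction of these small differences turned with single libraries: without knockout replicate 2 the value for Gata1 was 0.08 and without wildtype replicate 3 it was 0.06. With all libraries 3 of the 10 factors were above 0 and the median was -0.03 (all genes 0.01). With both of these libraries left out 9 of 10 were above 0 and the median was 0.17 (all genes 0.04), with 0 factors called and 1 below an unadjusted p of 0.05. Knockout replicate 2 was below the mean of all 10 factors, and wildtype replicate 3 was the highest library for Gata1, Ldb1 and Gfi1b. Leaving both out thus raised most of these differences by construction.

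Between heterozygous and wildtype libraries the widest gap was in Lmo2. Its means were 280.02 ± 22.7 FPKM in heterozygous and 330.2 ± 41.6 FPKM in wildtype libraries (SD, n = 3 each), and the log2 difference was -0.23 ± 0.14 (SE), with a 95% interval of -0.55 to 0.09 and an adjusted p of 0.9999 (limma). Lmo2 read -0.34 without wildtype replicate 3, and -0.17 to -0.34 over all libraries left out in turn. It was smaller under other scalings, at -0.058 with quantile normalization and -0.089 with every library rescaled to the same sum. Nfe2 had -0.14 (-0.56 to 0.27), Klf1 -0.14 (-0.47 to 0.20) and Gata1 -0.14 (-0.50 to 0.23), whereas Klf3 had 0.10 (-0.25 to 0.45). Limma called 0 of the 10 factors, against 0% of the 9543 genes, with 0 factors and 113 genes (1.18%) below an unadjusted p of 0.05, and voom called 0 genes, with 91 below that level. The groups overlapped for all 10 factors, and they did not for 4.36% of the tested genes.

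Knockout and heterozygous libraries were nearest to a difference in Nfe2 and Lmo2. Nfe2 averaged 317 ± 67.3 FPKM in knockout and 269.7 ± 32.0 FPKM in heterozygous libraries, a log2 difference of 0.21 ± 0.18 (SE; 95% interval -0.20 to 0.63). Leaving out single libraries moved it between 0.095 (without knockout replicate 3) and 0.40 (without knockout replicate 2), the larger value at an adjusted p of 0.9079 (limma), and quantile normalization gave 0.11. For Lmo2 the difference was 0.18 (-0.14 to 0.50), and 0.072 with quantile normalization. For Klf1 it was 0.10 (-0.24 to 0.43), and 0.019 on the same-sum scale. Limma called 0 of the 10 factors, against 0% of the 9543 genes, with 0 factors and 56 genes (0.587%) below an unadjusted p of 0.05, and voom called 0 genes, with 53 below it. The groups of all 10 factors overlapped, while those of 4.48% of the tested genes did not. The 3 comparisons share their libraries, so the opposite signs of Lmo2 against wildtype and against knockout rest on the same 3 heterozygous values.

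The intervals give the sizes of difference that these libraries leave possible. All 30 intervals lay inside 1 unit of log2, a 2-fold change on this scale. The widest were those of Gfi1b, which reached -41.6% between knockout and heterozygous libraries and 63.4% between heterozygous and wildtype libraries. Among the other 9 factors the outermost bounds were -32.5% (Bcl11a) and 54.4% (Nfe2), both between knockout and heterozygous libraries. Values of Bcl11a are understated on this scale, since its FPKM are close to the 1 that was added.

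**Figure D2:**
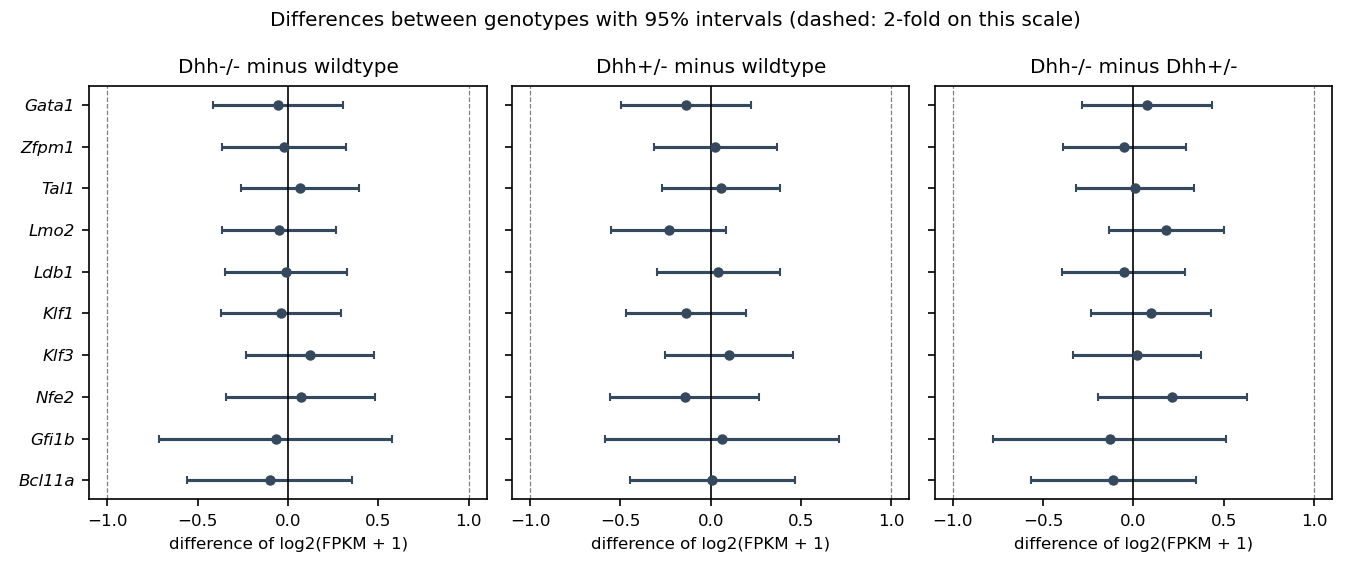
Differences of mean log2(FPKM + 1) for each factor (point) with 95% intervals from limma (bar), for knockout minus wildtype, heterozygous minus wildtype and knockout minus heterozygous; dashed lines mark a 2-fold difference. Every bar crosses 0 and stays inside the dashed lines, and Gfi1b has the longest.

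What varied was the library more than the genotype. Each factor was set against its own mean over the 9 libraries. Knockout replicate 2 was below that mean for all 10 factors and was the lowest library of 6 (Gata1, Zfpm1, Tal1, Klf1, Nfe2 and Gfi1b), with a median of -0.23 on the log2 scale. Wildtype replicate 1 was among the 3 lowest libraries for 8 factors, with a median of -0.17, yet stood at 0.20 for Lmo2 and 0.18 for Nfe2. Wildtype replicate 3 was the highest library for Gata1, Ldb1 and Gfi1b, with 0.61 for Gfi1b, but at -0.19 for Nfe2 and -0.12 for Lmo2. Knockout replicates 1 and 3 were above the mean for 8 factors each. In wildtype replicate 1 only Lmo2 and Nfe2 were above their own means, and in wildtype replicate 3 both were below them.

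**Figure D3:**
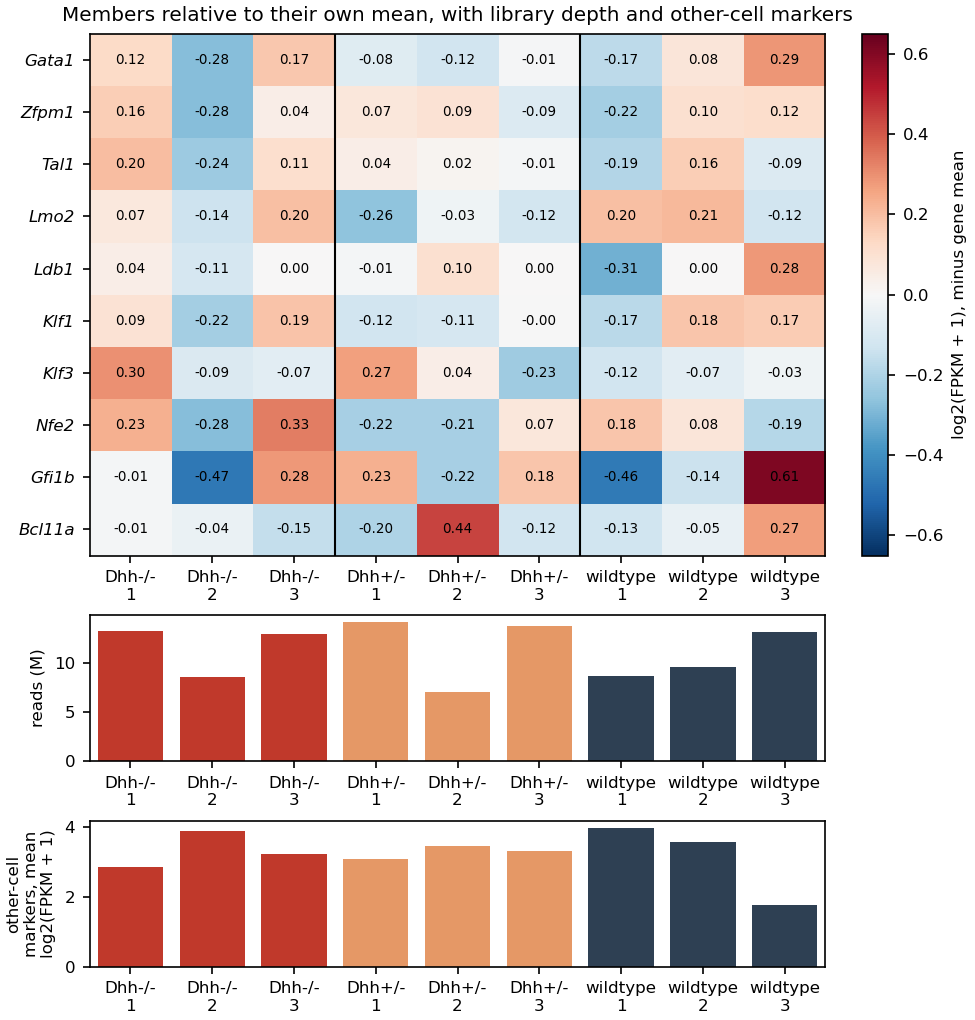
Top: log2(FPKM + 1) of each factor minus its own mean, by library (colour and printed value). Middle and bottom: reads in M and the mean log2(FPKM + 1) of 53 markers of other blood cells. Knockout replicate 2 is below the mean in every row, and wildtype replicate 3, with the shortest marker bar, holds the highest Gfi1b value.

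Transcripts of other blood cells also varied by library. Over 53 markers of B, T and natural killer cells, macrophages, neutrophils, megakaryocytes, basophils and dendritic cells, the mean level was 2.84, 3.88 and 3.21 in knockout libraries, 3.08, 3.45 and 3.30 in heterozygous libraries, and 3.97, 3.55 and 1.78 in wildtype libraries (log2(FPKM + 1)). The summed level of these markers ran from 1069.7 to 3421 FPKM in knockout, from 1467 to 1962 FPKM in heterozygous and from 519.7 to 3172 FPKM in wildtype libraries, and no marker was at 0 in all libraries. In wildtype replicate 3 the B cell factors Pax5 and Ebf1 and the T cell receptor chains Cd3d and Cd3g were listed at 0. The 2 libraries with the highest marker levels, knockout replicate 2 and wildtype replicate 1, had the lowest Gfi1b, at 75.5 and 75.8 FPKM, and the library with the lowest marker level had the highest, at 160.0 FPKM. The factors as a set did not follow the markers throughout. Their median centred log2 level was 0.08 in wildtype replicate 2, with a marker mean of 3.55, and -0.04 in heterozygous replicate 1, with 3.08. The part of other cells in the levels of the factors was not tested. With wildtype replicate 3 and knockout replicate 2 both left out, the difference of Gfi1b between knockout and wildtype libraries was 0.43 at an adjusted p of 0.2178 (limma), against -0.07 with all libraries, and 0 genes were called. Those libraries held the highest and the lowest Gfi1b value, so leaving them out raised this difference by construction.

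**Figure D4:**
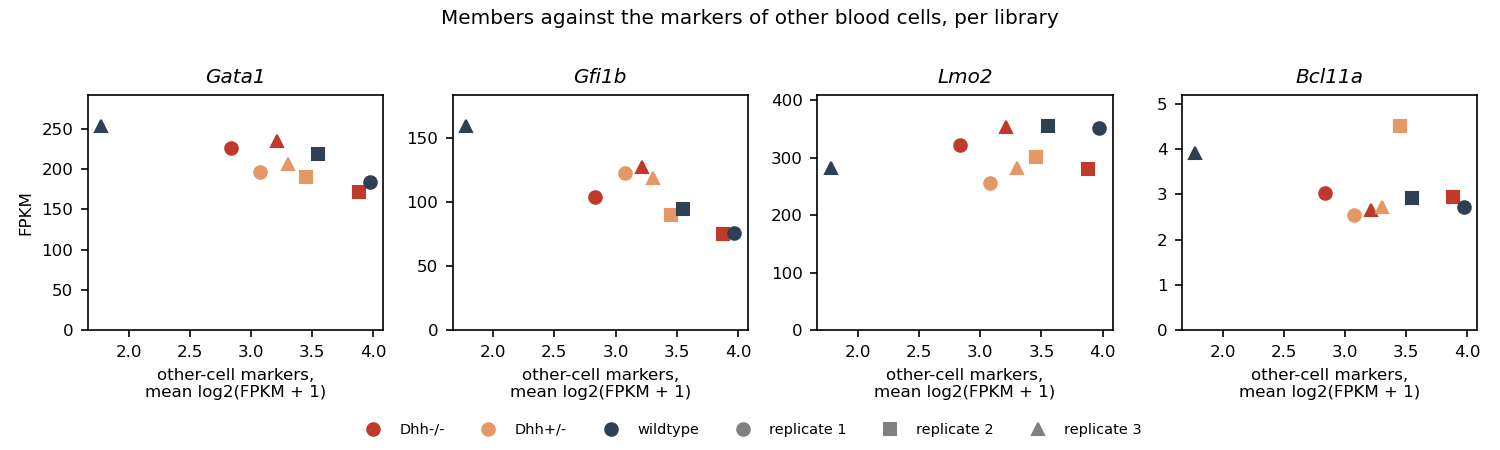
FPKM of Gata1, Gfi1b, Lmo2 and Bcl11a in each library (vertical axes from 0) against the mean log2(FPKM + 1) of 53 markers of other blood cells (colour: genotype; shape: replicate). Gfi1b runs from 160.0 FPKM at the lowest marker level, 1.78, to 75.8 FPKM at the highest, 3.97, while Lmo2 and Bcl11a show no such order.

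Levels of Gfi1b also differed with depth, as did those of many genes outside the set. The 4 libraries of 7.05 to 9.66 M reads had 75.5 to 94.9 FPKM, and the 5 libraries of 13.05 to 14.23 M had 104 to 160.0 FPKM. Gfi1b was the 1 factor of 10 whose levels in the 2 sets did not overlap, against 12.5% of all tested genes, or 6.86% that were lower in the shallower set. A count of 1 in 10 is near these shares, so nothing particular to the factors is read from it. The sets cross the genotypes unevenly, with 1 shallower library among the knockout, 1 among the heterozygous and 2 among the wildtype libraries. Within the deeper set the differences of Nfe2 and Lmo2 between knockout and heterozygous libraries were 0.35 and 0.33 (2 libraries each), and within the shallower set -0.06 and -0.11 (1 library each). Between heterozygous and wildtype libraries Lmo2 differed by -0.07 in the deeper set (2 libraries against 1) and by -0.23 in the shallower (1 against 2). The part of depth was not tested apart from the markers of other cells, whose mean log2 level was higher in the shallower libraries of each genotype. Their summed level was not, since heterozygous replicate 2, the shallowest library, had 1914 FPKM and the deeper heterozygous replicate 3 had 1962 FPKM.

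Within a library some factors kept nearly constant proportions. The ratio of Klf1 to Gata1 in FPKM was 1.70, 1.80 and 1.75 in knockout libraries, 1.68, 1.75 and 1.75 in heterozygous libraries, and 1.73, 1.87 and 1.59 in wildtype libraries, a coefficient of variation of 4.43%. Their centred log2 levels differed by 0.06 (root mean square over 9 libraries), the smallest of all pairs in the set. Such closeness was not particular to this pair, since outside the set Nup50 was at 0.04 from Gata1 and Pcmt1 at 0.05 from Klf1. Zfpm1 and Tal1 came next with 0.08. The ratio of Zfpm1 to Gata1 varied from 1.51 to 1.99, with a coefficient of variation of 8.92%.

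Other proportions were loose. The ratio of Lmo2 to Ldb1, partners in 1 complex, was 4.34, 4.19 and 4.87 in knockout libraries, 3.57, 3.87 and 3.91 in heterozygous libraries, and 6.08, 4.91 and 3.21 in wildtype libraries. The wildtype ratios spanned those of both other genotypes, with a coefficient of variation of 19.9% over the 9 libraries. The heterozygous ratios all lay below the knockout ratios, but this was 1 of several ratios examined. The share of gene pairs whose ratios separate genotypes was not computed, so no genotype difference is read from it. The ratio of Gfi1b to Gata1 ran from 0.41 in wildtype replicate 1 to 0.63 in wildtype replicate 3. The farthest pair of the set was Lmo2 and Gfi1b, at 0.42. Nfe2 and Mafk, a small Maf partner chosen here after its values were seen, had ratios of 3.65, 3.76 and 3.76 in knockout libraries, 3.76, 4.07 and 3.73 in heterozygous libraries, and 3.60, 3.59 and 3.85 in wildtype libraries, with a coefficient of variation of 3.87%. For Mafg, another small Maf, the ratio of Nfe2 to it varied more, from 4.93 to 6.59 with a coefficient of variation of 9.67%. Mafk was the second nearest of all tested genes to Nfe2, after Ip6k1. These ratios are descriptions over the same libraries and share their depth and sort.

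**Figure D5:**
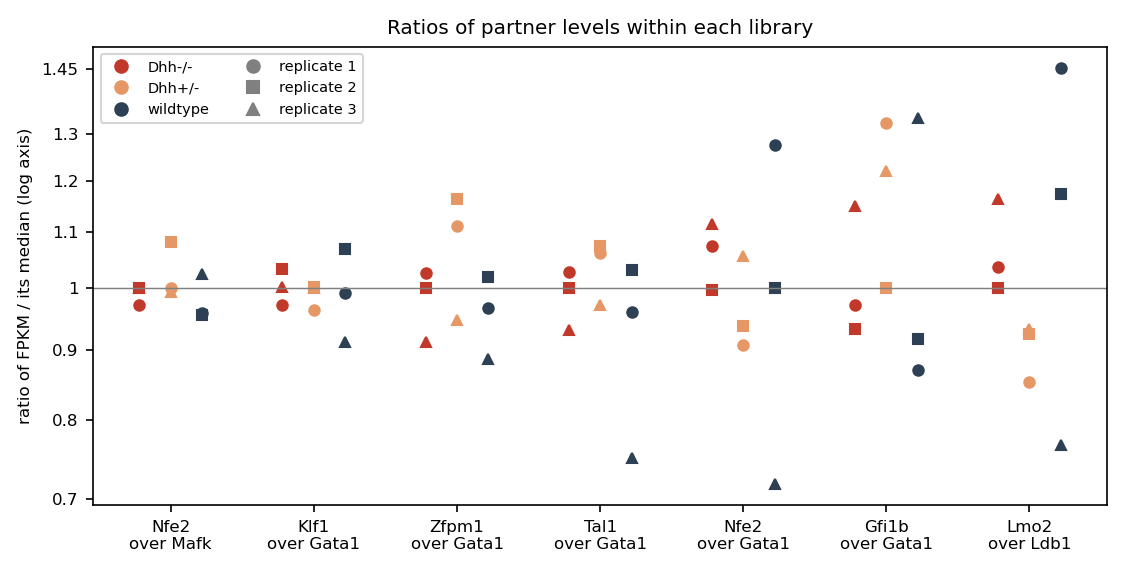
Ratio of the FPKM of 2 genes in each library over the median of that ratio (log axis; colour: genotype; shape: replicate). Nfe2 over Mafk and Klf1 over Gata1 stay closest to 1, and Lmo2 over Ldb1 spreads widest, with both extremes in wildtype libraries.

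The genes nearest in pattern to Gata1 outside the set, by the root mean square difference of centred log2(FPKM + 1) over the 9 libraries, were Nup50 at 0.04, Hmgn2 at 0.05 and Tmx1 at 0.05. Nup50, a nuclear pore protein, had 47.0, 36.4 and 46.6 FPKM in knockout, 40.8, 40.3 and 43.6 FPKM in heterozygous, and 38.1, 44.1 and 50.8 FPKM in wildtype libraries, the same order of extremes as Gata1. Nearest to Klf1 were Pcmt1, Prdx3, a mitochondrial peroxiredoxin, and Armt1, at 0.05 to 0.06. Nearest to Bcl11a were Rnf157, Bad, a promoter of cell death, and Slc10a7, at 0.07 to 0.08.

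Transcripts of the partners of these complexes were measured too. Of 14 named partners 12 could be tested, and limma called 0 of them in any of the 3 comparisons. Their median log2 difference was 0.08 between knockout and wildtype libraries (all genes 0.01), 0.06 between heterozygous and wildtype libraries (all genes -0.0020) and 0.04 between knockout and heterozygous libraries (all genes 0.0037). The most abundant were Ssbp3, which stabilises Ldb1, at 129 ± 20.4 FPKM in knockout, 130.5 ± 11.1 in heterozygous and 121 ± 27.4 in wildtype libraries, Tcf3 and Lyl1 (SD, n = 3 each). Tcf3, an E protein partner of Tal1, had 116 ± 16.3 FPKM in knockout, 112 ± 8.66 in heterozygous and 114 ± 18.1 in wildtype libraries. Lyl1, a close relative of Tal1, had 107 ± 21.96 FPKM in knockout, 97.7 ± 11.5 in heterozygous and 96.98 ± 8.74 in wildtype libraries. Ldb2, the paralog of Ldb1, was listed at 0 in 8 of 9 libraries, and Maff, another small Maf, stayed at or below 0.35 FPKM.

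Among 30 other transcription factors of the lineage 29 could be tested and 0 were called in each comparison. Their median difference was -0.03 between knockout and wildtype libraries, 0.03 between heterozygous and wildtype libraries and -0.06 between knockout and heterozygous libraries. The most abundant were E2f4, at 359.7 ± 67.9 FPKM in knockout, 361 ± 2.45 in heterozygous and 371 ± 52.5 in wildtype libraries, E2f2, and Mxd1, a repressor in the Myc network. E2f4 thus stood at the level of Klf1 and Zfpm1. Spi1, which opposes Gata1 and drives myeloid and B cells, had 11.8, 28.8 and 24.0 FPKM in knockout, 22.7, 14.9 and 29.8 FPKM in heterozygous and 33.8, 19.0 and 6.11 FPKM in wildtype libraries. Its highest library and its lowest were those with the highest and the lowest markers of other blood cells.

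Genes known to be activated by Gata1 were described beside the factor itself, and they were chosen with results of these data known. Limma called 0 of 13 tested in each comparison. The difference between heterozygous and wildtype libraries was below 0 for 12 of the 13, with a median of -0.24 (all genes -0.0020) and a range from -0.50 for Alas2, the first enzyme of heme synthesis, to 0.12 for Tfr2, a transferrin receptor. Between knockout and wildtype libraries 11 of 13 were below 0, with a median of -0.09, and between knockout and heterozygous libraries all 13 were above 0, with a median of 0.11. The 3 comparisons share their libraries. Hbb-bs, an adult beta-globin gene and the most abundant of the list, had 5964 ± 1889 FPKM in knockout, 5740 ± 2812 in heterozygous and 7269 ± 1661 in wildtype libraries (SD, n = 3 each), and it may share reads with its near-identical copy Hbb-bt. Alas2 had 3284, 6811 and 3523 FPKM in knockout, 2884, 7458 and 2994 FPKM in heterozygous, and 7090.3, 6379 and 4069 FPKM in wildtype libraries. The 4 libraries highest for Alas2 are the 4 of fewest reads, and there Gata1 had 171 FPKM (knockout replicate 2), 190.4 FPKM (heterozygous replicate 2) and 184 and 219 FPKM (wildtype replicates 1 and 2). With every library rescaled to the same sum, which moved the median of all genes to 0.12 between heterozygous and wildtype libraries, the list's median there was -0.10 and 11 of 13 genes were below 0. On that scale 8 of 13 were below 0 between knockout and wildtype libraries, with a median of -0.03, and 10 of 13 were above 0 between knockout and heterozygous libraries, with a median of 0.04. With knockout replicate 2 and wildtype replicate 3 left out, 7 of 13 were above 0 between knockout and heterozygous libraries. Slc4a1, the anion exchanger of the red cell membrane, had 3273 ± 297 FPKM in knockout, 3115 ± 321 in heterozygous and 3479 ± 188 in wildtype libraries (SD, n = 3 each).

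Of the genes silenced as Gata1 replaces Gata2 in maturing cells, 7 of 8 could be tested, 0 were called, and the median difference was 0.13 between knockout and wildtype libraries and between heterozygous and wildtype libraries, and -0.09 between knockout and heterozygous libraries. Without knockout replicate 2 and wildtype replicate 3 these medians turned, to -0.56 between knockout and wildtype libraries and -0.19 between heterozygous and wildtype libraries. Gata2, named here after its values were seen, had 0.54, 1.47 and 2.25 FPKM in knockout, 3.02, 0.72 and 2.04 FPKM in heterozygous, and 6.18, 0.91 and 0.28 FPKM in wildtype libraries, so that Gata1 exceeded it 29.8-fold to 917-fold. Both extremes of that ratio were wildtype libraries, replicate 1 and replicate 3, which were also the extremes of the basophil and mast cell markers, at 67.8 and 3.73 FPKM in sum. Myb, a factor of earlier progenitors, had 6.35 ± 2.86 FPKM in knockout, 5.65 ± 1.71 in heterozygous and 5.08 ± 1.64 in wildtype libraries. Not every gene of this list was low in these cells. Lyl1, its most abundant, had 82.0 FPKM in its lowest library, knockout replicate 2, and 121 FPKM in its highest, knockout replicate 3.

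The genes activated by Klf1 gave 0 calls among the 9 tested of 11, with a median of -0.02 between knockout and wildtype libraries, -0.12 between heterozygous and wildtype libraries and 0.10 between knockout and heterozygous libraries. Without knockout replicate 2 and wildtype replicate 3 the first of these was 0.11, and on the same-sum scale the second was 0.02. Aqp1, the water channel, had 771 ± 137 FPKM in knockout, 739 ± 55.1 in heterozygous and 808 ± 116 in wildtype libraries (SD, n = 3 each). Hbb-bs was the most abundant of this list too, followed by Hbb-bt and Aqp1. Hbb-bt, the other adult beta-globin gene, had the most negative difference between heterozygous and wildtype libraries, at -0.45. The embryonic globin genes, which Bcl11a holds silent in adult cells, were all at or below 3.09 FPKM in every library. Hbb-y had 3.09, 2.22 and 2.24 FPKM in knockout, 1.12, 1.55 and 1.91 FPKM in heterozygous, and 1.68, 1.65 and 2.17 FPKM in wildtype libraries. Its knockout values all lay above the others, and groups that do not overlap were found for 2.48% of all tested genes between knockout and wildtype libraries and for 4.48% between knockout and heterozygous libraries. The difference of Hbb-y between knockout and heterozygous libraries was 0.48 with an adjusted p of 0.9996 (limma). It was the 1 embryonic globin gene below an unadjusted p of 0.05 there, as 0.587% of all tested genes were. Hbb-bh1 and Hba-x overlapped between genotypes, and Bcl11a itself had 2.65 to 3.02 FPKM in the knockout libraries.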

How the data were processed

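RNA was sequenced from sorted splenic erythroblasts in 9 libraries, and the authors deposited 1 table of 20368 genes with 1 column per library. The header names no unit, and the deposited values were taken as FPKM from their behaviour. Each of the 14147 genes listed above 0 in 2 or more libraries gave whole reads (within 0.05 of a read) once a per-gene step and a library factor were divided out. The library factors were those of the median-of-ratios method, taken on 11276 genes. Depth was therefore known, from 7.05 to 14.23 M reads (M, 1e6) per library. Such factors can move with the composition of a library. TopHat, Picard, DESeq2 and mm10 are named in the submitters' processing notes, per the labels without version or role, and no source used here gives the annotation or the strandedness. Recovery of reads was tested on simulated data, and so was the limma test.

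Genes that reached 1 FPKM in 3 or more libraries were tested as log2(FPKM + 1), which understates the change of low genes. Limma 3.58.1 in R 4.3.3 fitted 1 mean per genotype over all 9 libraries (lmFit, eBayes with a trend), 2-sided, with Benjamini-Hochberg adjustment over 9543 genes and a threshold of 0.05. An exact permutation of 3 against 3 libraries cannot go below a p of 0.1. No count model was fitted, and voom on recovered reads was an alternative. Read recovery, tables and figures used Python 3.11.15 with numpy 2.4.6, matplotlib 3.10.9 and pandas 2.3.3. Positions are from GENCODE M21 (mm10), and promoters are from RefSeq (GRCm38.p6). Counting errors are 1 over the square root of the reads and cover counting only. The motif and neighbour searches had no test.

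The factors, the gene lists and the depth sets were chosen with earlier results of these data known. The text names all 10 factors, the 3 most abundant genes of each further list where none passed the test, and the 3 nearest neighbours of Gata1, Klf1 and Bcl11a. The genes Mafk, Mafg, Ip6k1, Maff, Ldb2, Gata2, Tfr2 and the single markers named were added after their values were seen. Ahsp, Ighm, Xist and Gp1bb were listed among the genes and markers and are not analysed here. Alternatives were quantile normalization, rescaling to the same sum, no filter and a filter at 5 FPKM, a pseudocount of 0.1, no variance trend, the replicate number as a block, only the libraries of a pair, voom, a depth term, each library left out, and wildtype replicate 3 with knockout replicate 2 left out together. Libraries with the same replicate number deviated together between knockout and heterozygous groups (correlations 0.20, 0.18 and 0.41 over genes). Same-numbered libraries did not all do so between knockout and wildtype (-0.57, 0.51 and 0.33) or between heterozygous and wildtype groups (0.13, 0.18 and 0). No label states a pairing, and replicate 2 was the shallowest library of both the knockout and the heterozygous group. The main fit used no pairing, and the replicate number entered only as a block among the alternatives.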

Additional observations from a re-analysis of the deposited data

How the results depend on the processing

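In each of the 3 comparisons limma called 0 of the 10 factors and 0 of all genes tested, and so did each of the 20 alternatives. Over these the number of factors below an unadjusted p of 0.05 was at most 1 for knockout and 1 for heterozygous against wildtype libraries, and at most 2 for knockout against heterozygous libraries. The lowest adjusted p of any factor was 0.2178 and that of any gene 0.0598 (limma), both with wildtype replicate 3 and knockout replicate 2 left out. There 2097 of 9543 genes were below an unadjusted p of 0.05 for knockout against wildtype libraries, against 43 (0.451%) with all libraries. How many genes pass that level thus depends on these 2 libraries. With the replicate number as a block, which ties same-numbered libraries of every genotype, 0 genes and 0 factors were called in every comparison. For knockout against heterozygous libraries 66 genes were then below an unadjusted p of 0.05, where 56 were without the block.

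Of the 30 differences of single factors, 25 changed sign under some alternative, all of them 0.14 or less in size to begin with. The 5 that kept their sign were those of Lmo2 for heterozygous against wildtype libraries and of Lmo2, Ldb1, Klf1 and Nfe2 for knockout against heterozygous libraries. Their sizes still moved by over 1.5 times: Lmo2 for heterozygous against wildtype libraries ran from -0.34 to -0.058, and for knockout against heterozygous libraries Lmo2 ran from 0.072 to 0.27, Ldb1 from -0.13 to -0.0097, Klf1 from 0.015 to 0.22 and Nfe2 from 0.095 to 0.40. The cause was not tested. With each library rescaled to the same sum, the median of all genes was 0.06 for knockout and 0.12 for heterozygous against wildtype libraries, and -0.07 for knockout against heterozygous libraries. The differences that turned there were Gata1 0.0074, Zfpm1 0.042, Lmo2 0.015, Ldb1 0.052 and Klf1 0.026 for knockout against wildtype libraries, Gata1 0.0081, Klf1 0.0071 and Nfe2 0.00060 for heterozygous against wildtype libraries, and Gata1 -0.00071, Tal1 -0.071 and Klf3 -0.059 for knockout against heterozygous libraries. With quantile normalization they were Zfpm1 0.034, Lmo2 0.014, Ldb1 0.00089 and Klf1 0.046 for knockout against wildtype libraries, Gata1 0.026, Klf1 0.027, Nfe2 0.013 and Bcl11a -0.034 for heterozygous against wildtype libraries, and Gata1 -0.036, Tal1 -0.11 and Klf3 -0.096 for knockout against heterozygous libraries. With wildtype replicate 3 and knockout replicate 2 both left out they were Gata1 0.20, Zfpm1 0.16, Ldb1 0.18, Klf1 0.14, Gfi1b 0.43 and Bcl11a 0.0062 for knockout against wildtype libraries, and Zfpm1 0.077 and Gfi1b 0.070 for knockout against heterozygous libraries. Voom gave Bcl11a -0.078 and a depth term gave Gfi1b -0.024, both for heterozygous against wildtype libraries. For knockout against wildtype libraries, leaving out 1 library at a time gave Gata1 -0.18 to 0.085, Zfpm1 -0.13 to 0.10, Tal1 -0.024 to 0.20, Lmo2 -0.16 to 0.040, Ldb1 -0.16 to 0.13, Klf1 -0.15 to 0.082, Klf3 -0.0064 to 0.19, Nfe2 -0.048 to 0.26, Gfi1b -0.30 to 0.23 and Bcl11a -0.18 to 0.020. For heterozygous against wildtype libraries, leaving out 1 library at a time gave Zfpm1 -0.084 to 0.085, Tal1 -0.019 to 0.16, Ldb1 -0.11 to 0.19, Klf3 -0.020 to 0.23, Gfi1b -0.17 to 0.36 and Bcl11a -0.19 to 0.13. For knockout against heterozygous libraries, leaving out 1 library at a time gave Gata1 -0.0053 to 0.22, Zfpm1 -0.14 to 0.077, Tal1 -0.081 to 0.14, Klf3 -0.11 to 0.14, Gfi1b -0.30 to 0.070 and Bcl11a -0.23 to 0.090. These ranges are given where a sign turned. The filter at 5 FPKM removed Bcl11a, which has no value there. Counting limits Bcl11a most, with as few as 165 reads, and the spread between libraries limits Gfi1b.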
